A study of Mus musculus with 8 samples.

Results

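The genes described here are 10 named members of the Notch pathway, of 21938 protein-coding genes annotated in mouse: the 4 receptors Notch1, Notch2, Notch3 and Notch4, the 4 ligands Jag1, Jag2, Dll1 and Dll4, and the 2 transcriptional targets Hes1 and Hey1. They were listed by name, as receptors, ligands and targets, and the rule itself uses no measured value. For each gene, the peaks of acetylated lysine 27 of histone H3 (H3K27ac, which marks promoters and enhancers in use) were collected over the gene body plus 50 kb on either side, separately in 4 breast tumors. Control tumors 1 and 2 came from PyMT;Rag1KO mice, and test tumors 1 and 2 from K14-TSLPtg;PyMT;Rag1KO mice, all on the Balb/c background. The polyoma middle T oncogene (PyMT), expressed from the MMTV promoter, drives mammary tumors, and Rag1 loss leaves mice without T and B cells of their own. At the age of 4 weeks, mice of both genotypes were given wild-type CD4+ T cells, and tumors were taken at terminal size. The test mice alone carried TSLP (thymic stromal lymphopoietin, an epithelial cytokine) driven by the keratin 14 promoter, which is active in basal epithelia such as the epidermis. The question put to these tumors was whether CD4+ T cells under TSLP change the histone marks of the tumor. Test samples were titled cyst and control samples tumor, and no histological grade was given for the single tumors.

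Notch receptors are cell surface proteins that are cut when a Jagged or Delta-like ligand on a neighbouring cell engages them. The released intracellular part enters the nucleus and joins the DNA-binding protein RBPJ, which turns on targets such as the repressors of the Hes and Hey families. In the mammary gland the pathway is known for luminal cell fate, and Notch4, Dll4 and Hey1 are also known for their roles in blood vessels.

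The peak lists held between 59762 intervals (test tumor 2) and 69861 intervals (control tumor 1), covering 2.36% to 2.68% of the genome. Test tumor 2 had both the fewest intervals and the smallest covered share. Peak height was not given, so every value below is a position, a width or a covered share. Most luminal genes were widely acetylated in all 4 tumors (mean of 36.9% to 39.3% of bases in peaks within 10 kb either side of the start, over 8 of 9 listed genes with any peak, Foxa1 being at 0 throughout and Elf5 at 0 in control tumor 2 and test tumor 2). The tissue was bulk tumor, so fewer cells of a type and less acetylation per cell cannot be told apart.

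The sequences below came from RefSeq (GRCm38.p6, the assembly also called mm10) and are written on the strand of the gene they are named for. The first pair shows starts and carries no difference between the groups. The Notch1 sequence is shown because this start, and not the outermost annotated one, lay inside an acetylated region in all 4 tumors, and the Dll4 sequence because only 1 tumor of each group had a peak beside it. Both are the 250 bases before the RefSeq start, at chr2:26503823-26504072 (minus strand) and chr2:119325534-119325783 (plus strand).
Notch1 upstream: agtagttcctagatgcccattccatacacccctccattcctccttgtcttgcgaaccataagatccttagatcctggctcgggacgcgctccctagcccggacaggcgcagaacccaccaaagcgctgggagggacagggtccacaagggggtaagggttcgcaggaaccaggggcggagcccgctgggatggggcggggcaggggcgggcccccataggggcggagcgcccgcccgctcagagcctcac
Dll4 upstream: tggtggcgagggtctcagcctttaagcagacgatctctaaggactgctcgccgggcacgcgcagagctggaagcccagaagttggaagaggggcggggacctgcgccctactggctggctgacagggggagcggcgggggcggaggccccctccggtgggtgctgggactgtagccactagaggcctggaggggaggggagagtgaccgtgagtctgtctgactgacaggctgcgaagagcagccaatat

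The 4 following stretches of 300 bases come from one-sided regions, meaning that a pair of tumors sharing a genotype had the region and the opposite pair did not. Such regions are called control-only or test-only. They lie in a Jag2 intron (chr12:112927240-112927539), in a Jag1 intron (chr2:137108149-137108448), upstream of Notch1 (chr2:26553555-26553854) and upstream of Dll4 (chr2:119298773-119299072). The first 3 were found in control tumors and the last in test tumors. Capitals mark TGGGAA, the core of the RBPJ binding site, on either strand.
Jag2 intron: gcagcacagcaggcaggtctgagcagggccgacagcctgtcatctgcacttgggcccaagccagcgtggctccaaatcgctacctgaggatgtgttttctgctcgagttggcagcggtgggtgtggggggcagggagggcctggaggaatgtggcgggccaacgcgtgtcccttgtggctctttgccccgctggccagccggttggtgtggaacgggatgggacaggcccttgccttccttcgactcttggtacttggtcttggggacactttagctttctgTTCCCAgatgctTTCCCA
Jag1 intron: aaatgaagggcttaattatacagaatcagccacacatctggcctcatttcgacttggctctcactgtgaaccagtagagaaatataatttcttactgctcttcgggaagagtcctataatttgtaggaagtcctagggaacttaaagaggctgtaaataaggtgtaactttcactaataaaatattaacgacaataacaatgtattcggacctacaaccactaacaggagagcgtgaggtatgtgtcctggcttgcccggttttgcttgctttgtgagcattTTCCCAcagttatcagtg
Notch1 distal: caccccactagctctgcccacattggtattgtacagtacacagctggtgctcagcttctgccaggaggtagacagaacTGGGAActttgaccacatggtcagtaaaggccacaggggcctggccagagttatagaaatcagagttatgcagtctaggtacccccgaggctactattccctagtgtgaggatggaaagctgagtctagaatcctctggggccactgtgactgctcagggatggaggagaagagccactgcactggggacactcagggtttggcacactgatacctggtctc
Dll4 distal: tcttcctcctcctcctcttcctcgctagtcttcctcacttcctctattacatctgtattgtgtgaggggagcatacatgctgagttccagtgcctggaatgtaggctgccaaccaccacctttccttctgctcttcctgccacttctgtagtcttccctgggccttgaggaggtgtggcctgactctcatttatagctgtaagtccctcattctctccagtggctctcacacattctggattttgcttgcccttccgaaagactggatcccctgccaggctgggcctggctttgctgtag

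The Jag2 stretch held 2 core matches, the Jag1 stretch 1, the Notch1 stretch 1 and the Dll4 stretch 0, the stretches having been placed to hold as many matches as the region allowed. The Jag1 match was also the longer form GTGGGAA. Taking instead the central 300 bases of each of the 11 one-sided regions of the 10 genes, 3 held the core (27.3%), against 27.1% of the 91238 regions of the whole data set. The longer form stood in 2 of 11 (18.2%) and in 6.69% of all regions. RefSeq promoters of 300 bases were held for 8 of the 10 genes (9 promoters, Dll1 having more than one), and none for Hes1 and Hey1. The core was in 0 of the 9, against 25.6% of 32851 promoters. These are letter matches in the C57BL/6J reference, not measured binding sites in Balb/c tumors.

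Across the group of 10, acetylation shifted in no common direction. Jag2 and Hes1 had higher window coverage (the percent of window bases in peaks) in both control tumors than in both test tumors, Notch3 and Dll4 had higher coverage in both test tumors, and the tumors of the other 6 genes overlapped between groups. The 2 genes higher in control compare with 13.0% of the 18693 coding genes that had any coverage, and the 2 higher in test with 17.3%. The median difference over the 10 genes, test minus control, was -1.05 percentage points, and the median over all genes was 0.0192. With 2 tumors per group the smallest p that the exact permutation test over tumors can give, two-sided, is 0.333. It was reached by Jag2, Hes1, Notch3 and Dll4, so no difference could pass a threshold of 0.05.

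**Figure D1:**
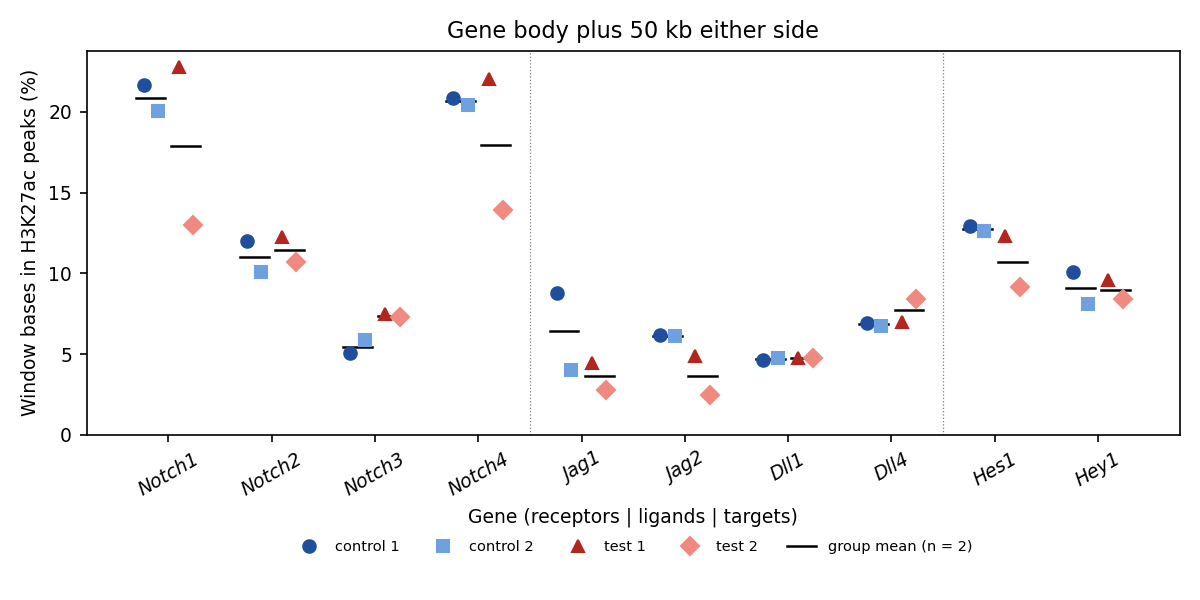
Percent of window bases (gene body plus 50 kb either side) in H3K27ac peaks for each of the 10 genes, with one symbol per tumor and a bar at each group mean. Jag2 and Hes1 had both control tumors on top and Notch3 and Dll4 both test tumors, while Notch1 and Notch4 were low in test tumor 2 alone.

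Among the receptors, Notch1 had the largest number of acetylated regions. Its window (gene at chr2:26457903-26516663, minus strand) was covered to 21.7% in control tumor 1, 20.04% in control tumor 2, 22.8% in test tumor 1 and 13.0% in test tumor 2. Test tumor 1 was the highest of the 4 and test tumor 2 the lowest, so the groups overlapped (20.9% ± 1.15 in control and 17.9% ± 6.89 in test, SD, n = 2 each). Joined over the 4 tumors, the window held 40 regions, of which 11 were in all 4 tumors and 6 in all but test tumor 2. The most extended was 12877 bp long (chr2:26496119-26508995) and was covered over 12215, 11399, 11951 and 10417 bp in control tumors 1 and 2 and test tumors 1 and 2. It spans the start of the RefSeq transcript, 12841 bp downstream of the outermost start annotated by GENCODE. At that outermost start only test tumor 1 had a peak, 186 bp wide. The window also holds the starts of Inpp5e and Sec16a.

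Notch1 had 4 regions that both control tumors had and both test tumors lacked. One of 466 bp lay in an intron 30.4 kb from the outermost start, and the other 3, of 288, 291 and 478 bp, lay upstream, 26.9, 35.6 and 37.0 kb from it. These were small regions near others. The gap to the nearest interval of a test tumor was 747 bp for the intronic region and 250, 1631 and 249 bp for the upstream regions. When every list was cut to the length of that of test tumor 2, the control-only regions of all 10 windows went from 9 to 4. This cut dropped the narrowest intervals of each longer list, so small regions were the first to be lost.

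Notch4, a receptor known from endothelium, showed the same order of tumors as Notch1. Its window (gene at chr17:34564268-34588503, plus strand) was covered to 20.9% and 20.4% in the control tumors, 22.0% in test tumor 1 and 13.9% in test tumor 2. The groups overlapped, and the low value was that of 1 test tumor. The same held within the gene body, where peaks covered 38.0%, 33.1%, 40.1% and 15.7% in the same order. The peaks within 1 kb of the start were 2145, 1612, 3275 and 630 bp wide, again smallest in test tumor 2. The most extended region, of 7931 bp, was in all 4 tumors but also spans Gpsm3 and Pbx2, and the window holds the starts of 9 other coding genes. A control-only region of 248 bp lay beyond the 3′ end of the gene within 1 kb of the start of Ager, 3501 bp from the nearest interval of a test tumor.

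Notch2 did not separate the groups over its window (gene at chr3:98013527-98150361, plus strand). Coverage was 11.98% and 10.1% in control tumors against 12.2% and 10.7% in test tumors. Once coverage was scaled to each tumor's genome-wide share, both test tumors were higher. Nearer the start, within 10 kb either side, both test tumors were higher, at 19.1% and 14.5% against 13.5% and 12.8%. The difference, 3.62 percentage points with an SD of 2.69 over the 4 possible test and control pairs, was 1.32 without test tumor 1, 5.92 without test tumor 2, and turned to -1.69 within 2.5 kb. The peak at the start itself was of similar width in all tumors (1762, 2093, 1828 and 1858 bp). Of 26 regions in the window, 14 were in all 4 tumors and 20 lay in the gene body. The only one-sided region, 205 bp and control-only, lay in an exon of the neighbour Adam30.

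Notch3 was the receptor with more coverage in both test tumors. Peaks covered 5.06% and 5.85% of its window (gene at chr17:32120820-32166852, minus strand) in control tumors and 7.47% and 7.31% in test tumors, a difference of 1.93 percentage points (5.46% ± 0.552 against 7.39% ± 0.114, SD, n = 2 each; exact permutation p = 0.333). The groups did not overlap, and the difference ranged from 1.54 to 2.33 when 1 tumor was left out. The gain lay in the flanks rather than at the gene. Peaks within 1 kb of the start were 1333 and 1650 bp wide in control and 1705 and 1655 bp in test tumors. The body regions covered 4288, 4509, 4523 and 4479 bp in control tumors 1 and 2 and test tumors 1 and 2. Flanking regions away from other gene starts covered 1775 and 2378 bp in control against 4682 and 4540 bp in test tumors.

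One flanking region beyond the 3′ end of Notch3 (chr17:32113825-32115057) was absent from control tumor 1 and covered 316, 1233 and 556 bp in the other tumors. Over the gene body alone the Notch3 groups overlapped, with a difference of 0.273 percentage points, and with flanks of 100 kb it was 0.0817.

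Jag2 was the ligand with less coverage in both test tumors. Its window (gene at chr12:112907819-112929776, minus strand) was covered to 6.16% and 6.09% in control tumors, 4.90% in test tumor 1 and 2.45% in test tumor 2, a difference of -2.45 percentage points (6.13% ± 0.0481 against 3.68% ± 1.73, SD, n = 2 each; exact permutation p = 0.333). The number of peaks in the window was 12 and 14 in control and 10 and 3 in test tumors. Both measures were higher in both control tumors. The difference in peak number, -6.5, was -3 without test tumor 2 and -10 without test tumor 1, and the groups overlapped in it when intervals within 1 kb were joined or with peaks of at least 1 kb alone. The difference in coverage was -1.23 without test tumor 2 and -3.68 without test tumor 1, and the groups overlapped with flanks of 100 kb or with peaks of at least 1 kb alone. The window also holds the starts of Gpr132, Nudt14 and Btbd6. Body regions covered 804 and 815 bp in control and 0 bp in both test tumors. Flanking regions away from other gene starts covered 3413 and 2665 bp in control against 2489 and 161 bp in test tumors. Regions at starts of other genes covered 3299 and 3953 bp against 3487 and 2829 bp.

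Within the Jag2 gene itself the test tumors had no peak at all. Peaks covered 3.66% and 3.71% of the gene body in control tumors and 0% in both test tumors. The only one of these body regions in both control tumors was 670 bp long, in an intron 2.29 kb from the start (chr12:112927155-112927824), the region of the Jag2 stretch printed above, covered over 618 of 804 body bp in control tumor 1 and 363 of 815 in control tumor 2. The nearest interval of a test tumor was 13255 bp away. No tumor had a peak within 1 kb of the Jag2 start, the nearest being 1952 and 1598 bp away in control and 11304 and 11631 bp in test tumors. The other control-only region of the window, 281 bp, lay in an intron of Gpr132, 581 bp from an interval of test tumor 1. The Jag2 peaks were narrow: with peaks of at least 1 kb alone, coverage within 10 kb of the start was 0 in every tumor.

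Jag1, the other Jagged ligand, was set apart by 1 control tumor. Coverage of its window (gene at chr2:137081456-137116644, minus strand) was 8.80% in control tumor 1 and 4.03% in control tumor 2, and 4.45% and 2.80% in test tumors 1 and 2. The groups overlapped, and without control tumor 1 the difference went from -2.78 to -0.399 percentage points. The peaks of the gene body beyond the promoter covered 6353 bp in control tumor 1 and 724, 1147 and 825 bp in the other tumors. Of its 13 regions, 6 were found in control tumor 1 alone. The promoter region was in all 4 tumors and covered 4513, 4081, 4175 and 2959 bp. One intronic region of 898 bp, 8.35 kb into the gene (chr2:137107850-137108747), was control-only, with 743 bp covered in control tumor 1 and 173 bp in control tumor 2, and it ended 619 bp from an interval of test tumor 1.

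Dll4, the Delta-like ligand of blood vessel sprouting, had more window coverage in both test tumors, by a small margin. The values (gene at chr2:119325784-119335962, plus strand) were 6.96% and 6.75% in control against 7.01% and 8.42% in test tumors, a difference of 0.863 percentage points (exact permutation p = 0.333). The margin between control tumor 1 and test tumor 1 was narrow, and most of the difference came from test tumor 2. The difference was 0.161 without test tumor 2 and 1.57 without test tumor 1, and the groups overlapped over the gene body alone, with flanks of 10 kb, with peaks of at least 1 kb alone, or once coverage was scaled to each tumor's genome-wide share. Near the start the groups overlapped (4.21% and 2.19% against 4.24% and 2.45%). A peak within 1 kb of the start was found in control tumor 1 (273 bp) and test tumor 1 (338 bp), and in the others the nearest interval was 6782 and 6822 bp away.

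The 2 test-only regions of the 10 windows were both at Dll4. One of 514 bp, 26.9 kb upstream (chr2:119298666-119299179), was covered over 177 bp in test tumor 1 and 393 bp in test tumor 2, and it stood 196 bp from an interval of control tumor 1. It sits beside the most extended region of the window (chr2:119299360-119301644), which was in all 4 tumors and covered 1989, 1573, 2116 and 666 bp. The other, of 324 bp (chr2:119377436-119377759), touches an exon of Ino80 and was covered over 207 and 213 bp, with 6586 bp to the nearest control interval. Both lay outside the gene.

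**Figure D2:**
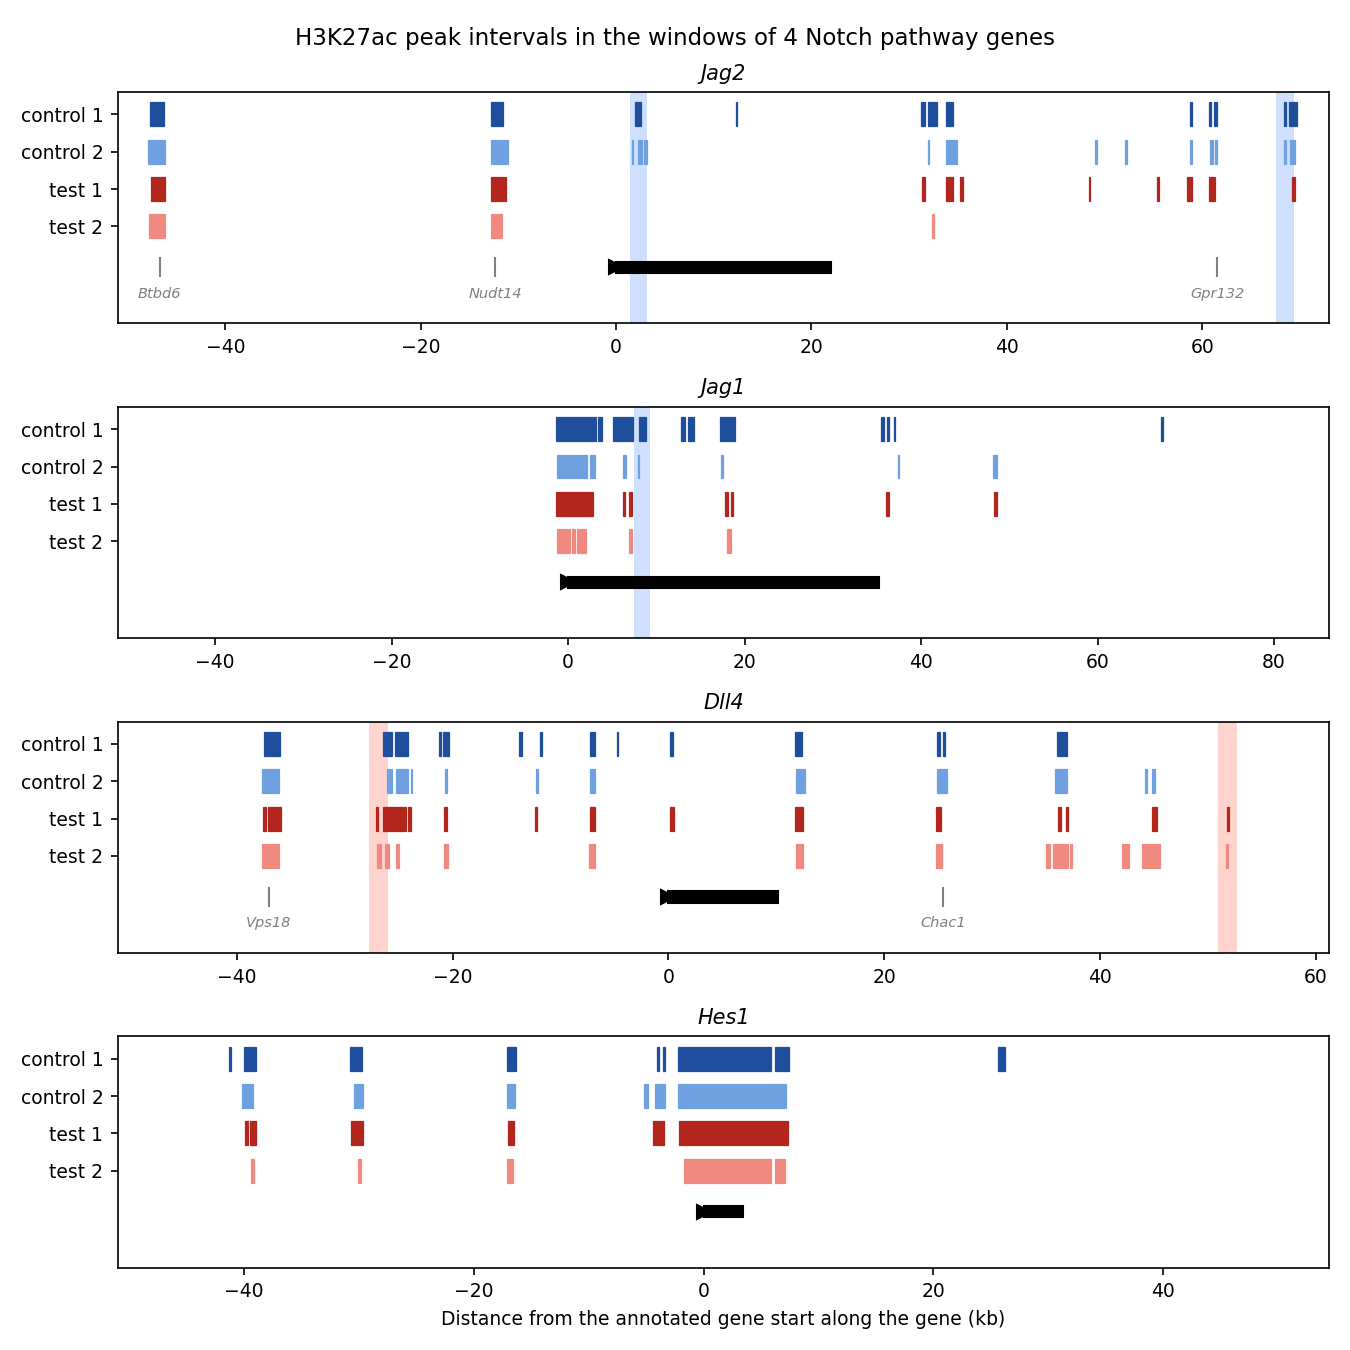
Peak intervals of each tumor (filled boxes) against distance from the annotated start in kb along the gene, for Jag2, Jag1, Dll4 and Hes1, with the gene as a black bar, starts of other coding genes in grey, and bands marking control-only (blue) and test-only (pink) regions; bands are drawn wider than the regions. The Jag2 body has boxes in control tumors only, the Jag1 intronic boxes are broadest in control tumor 1, and the Hes1 gene lies inside a broad box in every tumor.

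Dll1 was the ligand that varied least over its window, but not over its gene body. Its window (gene at chr17:15367354-15376872, minus strand) was covered to 4.63% and 4.78% in control and 4.77% and 4.73% in test tumors. The difference of 0.0443 percentage points was smaller than the SD over the same kind of pairs (0.0848). Over the gene body alone both test tumors were higher, at 28.4% and 26.7% against 25.4% and 25.7%, a difference of 2.02. With flanks of 10 kb both test tumors were also higher, by 0.960. Within 10 kb of the start both test tumors were higher, at 14.4% and 13.5% against 13.1% and 12.6%, a difference of 1.07 that was 0.607 without test tumor 1 and turned to -0.137 when intervals within 1 kb were joined. The peaks at the start were 2150, 2526, 2713 and 2483 bp wide, and no region of the window was one-sided.

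Hes1, a repressor that is the classical direct target of Notch, lay entirely within acetylated chromatin in every tumor. Its gene body (chr16:30064384-30067796, plus strand) was covered to 100% in all 4 tumors by a region of 9666 bp, of which 9272, 9415, 9509 and 8350 bp were in peaks. Window coverage was 12.9% and 12.6% in control tumors against 12.3% and 9.17% in test tumors, a difference of -2.02 percentage points (exact permutation p = 0.333). The groups did not overlap, but test tumor 1 lay close to control tumor 2. The difference was -0.452 without test tumor 2 and -3.58 without test tumor 1, and the groups overlapped with flanks of 10 kb or with peaks of at least 1 kb alone. The flanking regions accounted for most of it, covering 4073 and 3609 bp in control against 3208 and 1130 bp in test tumors. Within 10 kb of the start the groups overlapped (48.0% and 53% against 52.3% and 41.7%), while within 2.5 kb both control tumors were higher.

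Hey1, a related repressor with a known role in vessels, did not separate the groups on any of the 3 measures of level. Its window (gene at chr3:8663359-8667256, minus strand) was covered to 10.1% and 8.08% in control and 9.58% and 8.42% in test tumors. Its gene body was covered to 97.0% and 95.4% against 97.7% and 95.6%, and the coverage near the start was 28.4% and 25.7% against 27.4% and 26.8%. Of 7 regions in the window, 5 were in all 4 tumors (71.4%), the highest share of the 10 genes, and none was one-sided.

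Measured over the same stretch, 10 kb either side of each start, Hes1 was the most covered of the 10 genes (control mean 50.5%, test mean 47.0%). Jag1, Notch3 and Hey1 followed in control tumors at 31.6%, 29.9% and 27.1%, and their order was not separated from the spread, since Jag1 alone ranged from 22.9% to 40.3%. Notch4, Notch1, Notch2 and Dll1 had control means of 19.1%, 15.5%, 13.2% and 12.9%, and of these neighbours Notch2 and Dll1 differed by less than the SD of Notch2 (0.530). Jag2 and Dll4 were lowest, with control means of 3.58% and 3.20%, and their control tumors overlapped. In this measure 1 gene was higher in both control tumors (Jag2) and 3 in both test tumors (Notch2, Notch3 and Dll1), beside 11.6% and 20.9% of 14792 coding genes. This balance depended on the stretch: within 2.5 kb of the start, 3 genes were higher in both control tumors (test minus control was -9.49 percentage points for Jag2, -5.97 for Hes1 and -14.2 for Notch4) and 0 in both test tumors, beside 10.9% and 22.1% of 13105 coding genes with coverage there. The Notch2 and Dll1 groups also overlapped when intervals within 1 kb were joined and with peaks of at least 1 kb alone. For Notch1 the stretch is centred on the outermost start and takes in only part of the broad region.

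**Figure D3:**
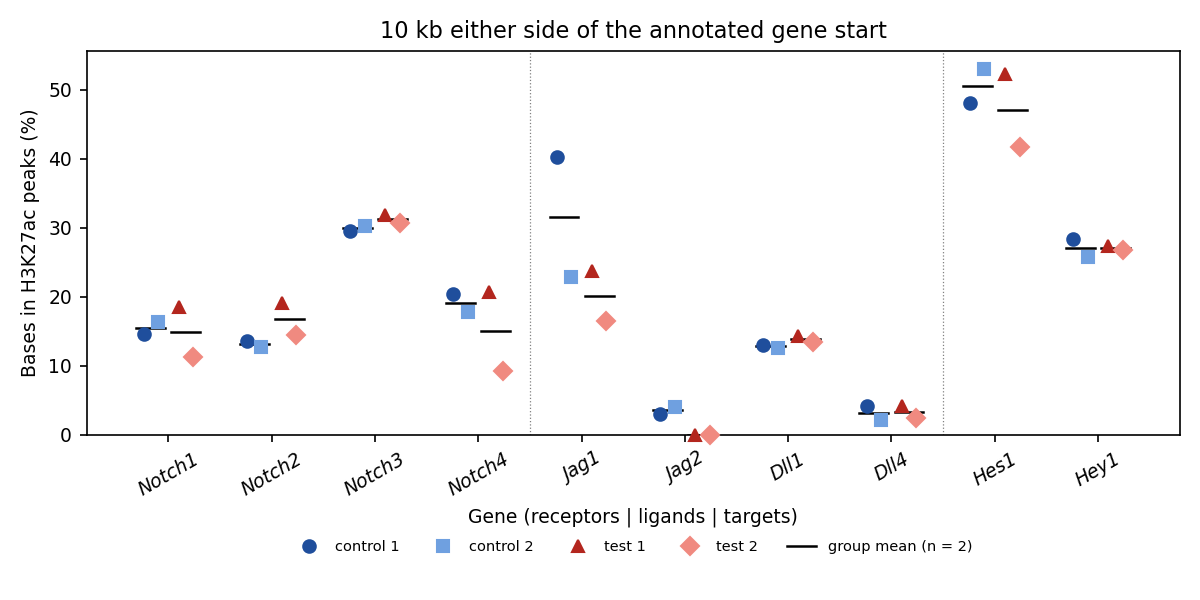
Percent of bases in H3K27ac peaks within 10 kb either side of the annotated start, one symbol per tumor and a bar at each group mean. Hes1 is highest in every tumor, Jag2 is at 0 in both test tumors, and Jag1 in control tumor 1 reaches 40.3%.

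At the promoter (1 kb either side of the start) 7 of the 10 genes had a peak in all 4 tumors, beside 49.6% of 21938 coding genes. The exceptions were Notch1, Jag2 and Dll4. When any annotated coding start was allowed, Notch1 also had one in all 4 tumors. No promoter was control-only or test-only (0 of 10 each, beside 0.533% and 0.301% of coding genes).

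The 10 windows held 165 regions, of which 60 (36.4%) were in all 4 tumors, close to the 38.1% of all 91238 regions. Control-only regions numbered 9 (5.45%, beside 3.41% of all regions) and test-only regions 2 (1.21%, beside 1.47%). With lists of equal length, the narrowest intervals being dropped, the control-only regions were 4 of 145 (2.76%, beside 2.68% of all regions). With intervals within 1 kb joined they were 5 of 113 (4.42%, beside 2.88%). The 11 one-sided regions were between 205 and 898 bp wide with a median of 324 bp, while the 60 shared regions had a median of 1963 bp. The 3108 control-only regions of the whole data set were also narrow, with a median of 406 bp. Joining intervals of 4 tumors rather than 2 also tends to widen a region. None of the 11 was at an own promoter: 3 lay in the gene bodies of Notch1, Jag1 and Jag2, 1 within 1 kb of the start of another gene and 7 elsewhere in the flanks. The pattern of presence in all but test tumor 2 was seen in 14 regions (8.48%, beside 6.38% of all), and 6 of these were at Notch1 and 4 at Jag2. Own-promoter regions were in all 4 tumors in 9 of 11 cases, and regions at the start of another gene in 11 of 14. Body regions were in all 4 tumors in 21 of 53 cases and other flanking regions in 19 of 87.

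Of 53 further genes of the pathway, 8 (15.1%) had higher window coverage in both control tumors and 13 (24.5%) in both test tumors, beside the same 13.0% and 17.3% of coding genes. Their median difference was 0.139 percentage points. Rbpj, which encodes the DNA-binding partner of all 4 receptors, had 8.99% and 8.68% in control against 5.34% and 5.26% in test tumors, with the tumors of each group close together. Lfng, a glycosyltransferase that tunes which ligand a receptor answers to, had 12.1% and 11% against 9.65% and 4.86%. Lower margins in the same direction were seen at Dtx4, a Deltex-family gene (10.1% and 10.3% against 8.54% and 8.34%) and at Aph1c, a subunit of the receptor-cutting gamma-secretase (6.96% and 5.31% against 5.08% and 4.23%).

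In the other direction stood Rfng, a relative of Lfng, with 10.1% and 8.87% in control against 16.1% and 12.4% in test tumors. Hes7, of the Hes family, had 18.8% and 18.5% against 21.5% and 21.8%. Fbxw7, whose product marks the released receptor for destruction, had 6.49% and 6.31% against 7.94% and 10.2%. Kat2b, an acetyltransferase, and Dll3, a ligand known for inhibiting the pathway, had smaller margins (8.03% and 7.29% against 8.10% and 10.9%, and 8.39% and 7.09% against 9.14% and 9.26%). Dll3 had no peak within 1 kb of its start in any tumor, and Hes7 had one in test tumor 1 alone. The windows of the further genes were not split by place, so their values can include neighbouring genes. By role, the glycosylation genes had 2 of 5 higher in control and 1 higher in test, the receptor cleavage genes 1 and 2 of 10, and the nuclear complex 1 and 2 of 9. The corepressors had 2 and 1 of 6, the turnover genes 1 and 3 of 8, the further Hes, Hey and target genes 1 and 2 of 8, the ligand ubiquitination genes 0 and 1 of 4 and the further ligands 0 and 1 of 3. No role had every member separated between the groups. All 4 ligand ubiquitination genes and all 3 further ligands had a mean difference above 0, beside 9605 of 18693 coding genes. Several of these differences were smaller than their SD over the 4 test and control pairs. Of the 53 promoters, 36 had a peak in all 4 tumors (beside 49.6% of coding genes) and 11 in none. The promoter of Psen2, a catalytic subunit of gamma-secretase, was the 1 that was control-only (beside 0.533% of coding genes).

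**Figure D4:**
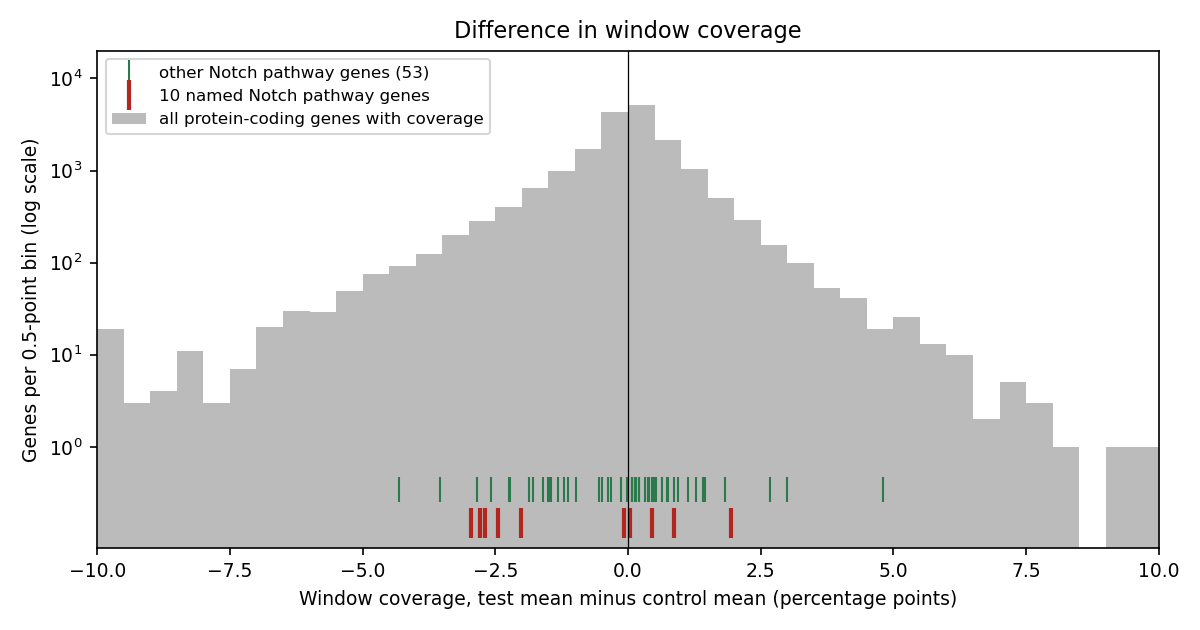
Difference in window coverage, test mean minus control mean, in percentage points: bars count all coding genes with coverage per bin on a log axis (the outermost bins also hold genes beyond the axis), and ticks mark the 10 genes (red) and the 53 further pathway genes (green). The 10 genes lie between -2.96 (Notch1) and 1.93 (Notch3), inside the range of the other genes.

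Since Notch genes act in vessels as well as in epithelium, markers of the cell types that a bulk tumor can hold were read beside them. Endothelial genes were less covered in test tumors: the mean within 10 kb of the start was 5.78% and 4.38% in control against 2.07% and 0.691% in test tumors, over 8 of 10 listed genes with any peak, and 4 of the 8 were higher in both control tumors (Pecam1, Cdh5, Esam and Emcn). Over all coding genes in this measure, 11.6% were higher in both control tumors and 20.9% in both test tumors, which is the background for each list. The endothelial genes Tie1 and Cldn5 were at 0 in every tumor. Fibroblast genes had 6.65% and 5.40% against 4.11% and 1.29% (5 of 8 covered, 2 higher in control, with Lum, Dpt and Fap at 0), and mural genes 17.8% and 14.4% against 15.0% and 11.5% (4 of 7 covered, 1 higher in control, with Rgs5, Cspg4 and Des at 0). Myeloid genes had 22.4% and 19.9% against 21.5% and 17.2% (7 of 8 covered, 2 higher in control, with Adgre1 at 0), and T cell genes were low throughout (0.757% and 1.62% against 0.181% and 0.357%, 7 of 7 matched genes covered, 2 higher in control and 1 in test). Luminal genes overlapped in mean level (1 of 8 higher in control, 2 in test), as did myoepithelial genes (6.14% and 2.5% against 6.82% and 2.0%, 7 of 8 covered, Trp63 at 0). The endothelial, fibroblast and T cell lists had both control tumors above both test tumors, as did Jag2 and Hes1 in window coverage. Of the genes known from vessels, Dll4 was higher in both test tumors in window coverage, and Notch4 and Hey1 overlapped. The part of these cells in the values of the 10 genes was not tested.

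**Figure D5:**
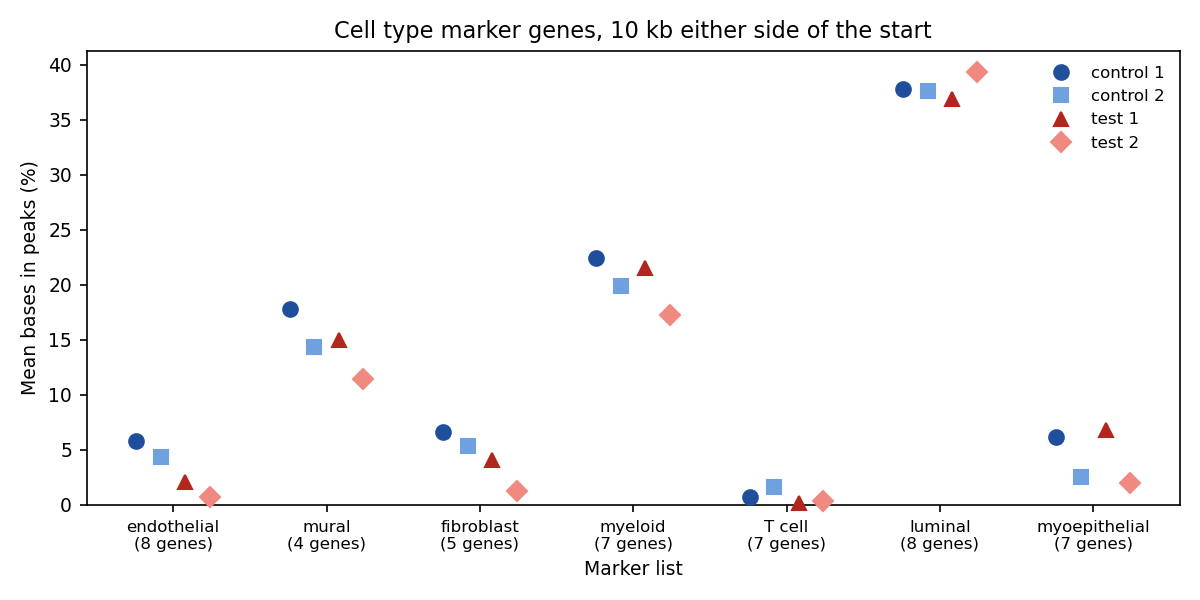
Mean percent of bases in H3K27ac peaks within 10 kb either side of the start, over the covered genes of 7 marker lists, one symbol per tumor. Endothelial, fibroblast and T cell lists are higher in both control tumors, luminal lists sit between 36.9% and 39.3% in every tumor, and the myoepithelial list is higher in control tumor 1 and test tumor 1.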

How the data were processed

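Tumors were grouped by genotype, and the number of a tumor only names it. Per the study's methods and notes, the authors used BWA for alignment to mm10 and MACS2 for peak calling, tumor by tumor against input, with versions not given in the sources used here. Each deposited interval is a start and an end in base pairs, with no count, score or signal. No interval lay closer than 201 bp to the next, per the merging named in the files. Read depth is unknown, and more deeply sequenced tumors can have more and wider peaks. The 4 input libraries were not analysed here.

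Gene positions came from GENCODE M21 (21 chromosomes), 120 of 121 listed symbols being matched. Overlapping or touching intervals were joined across the 4 tumors into regions, and presence required 1 bp. Python 3.11.15, pandas 2.3.3, scipy 1.17.1 and pysam 0.24.0 were used, and the code was tested on simulated data. The only test was the exact permutation test over tumors. Where no p is given, groups were compared by whether both tumors of one exceeded both of the other. All 10 genes were named, with up to 5 further pathway genes per direction by size of difference, every further gene with a one-sided promoter, and one-sided or widest regions; a Notch3 flank region, and marker genes singled out, were chosen after their values were seen. Some items that these rules name are not reported here. The members and lists were chosen with earlier results of these data known. Other windows, peak widths, list lengths, joining distances and leaving out each tumor were tried.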

Additional observations from a re-analysis of the deposited data

How the results depend on the processing

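Read depth limits these comparisons, since absence of a peak in a shallow list need not be absence of the mark, and 2 tumors per group cannot give p below 0.333. Genes higher in control numbered 2, and 1 with gene body only, 10 kb or 100 kb flanks and 0 with peaks of at least 1 kb (beside 13.4%, 12.9%, 12.9% and 9.90% of all genes). Genes higher in test numbered 2, and 1 with gene body only, 100 kb flanks or peaks of at least 1 kb (beside 18.0%, 16.5% and 19.7%). With gene body only that gene was Dll1, while Notch3 and Dll4 overlapped, and with 100 kb flanks it was Dll4. With 10 kb flanks the number was 2 (beside 18.6%), with Dll1 among them and Dll4 not. Control-only regions, 9 of 165 (5.45%), were 3 of 62 (4.84%) with body only and 4 of 85 (4.71%) with 10 kb flanks, beside 3.41% of all regions. They were 9 of 254 (3.54%, beside 3.41%) with 100 kb flanks, 5 of 113 (4.42%, beside 2.88%) with intervals within 1 kb joined, 2 of 56 (3.57%, beside 2.47%) with peaks of at least 1 kb and 4 of 145 (2.76%, beside 2.68%) with equal list lengths. Test-only regions went from 2 to 0 (body only), 0 (10 kb flanks), 1 (joined), 1 (at least 1 kb), 1 (equal lengths) and 4 (where 50% of a region had to be covered), beside 1.47%, 1.47%, 1.31%, 2.08%, 1.99% and 2.17%. With body only, 5 of 53 further pathway genes were higher in test, beside 18.0% of all genes. With 2.5 kb promoters, 1 promoter (Jag2) was control-only, beside 0.570% of coding genes. The endothelial difference was -5.24 when intervals were joined and -1.20 with peaks of at least 1 kb, against -3.70. The luminal difference was 1.89 joined, against 0.405, and both test tumors were then higher. The mural difference was -5.25 joined, against -2.87, and both control tumors were then higher. With peaks of at least 1 kb the fibroblast difference was -1.53 and that of T cell genes 0, and the groups overlapped in both lists. Near the start, Dll1 turned to -0.137 when joined and Notch2 to -1.69 within 2.5 kb. The cause of these changes was not tested. Leaving out 1 tumor eases the call by construction: control-only regions then numbered 11 to 32, test-only regions 4 to 19, genes higher in control 2 to 5, genes higher in test 2 to 5, further genes 9 to 28 and 13 to 30 (beside 5.52% to 15.5% and 3.30% to 11.2% of all regions, and 20.5% to 46.6% and 29.4% to 48.5% of all genes), and test-only promoters 0 to 1 (beside 0.684% to 1.01% of coding genes). The endothelial range was -4.40 to -3.00, mural -4.61 to -1.13, fibroblast -4.73 to -1.92, myeloid -3.95 to 0.369, T cell -1.35 to -0.488, luminal -0.800 to 1.61 and myoepithelial -2.32 to 2.5. No paired analysis was possible because the labels give no replicate numbers: 1 and 2 follow accession order within each genotype and only name a tumor.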
